A study of Arabidopsis thaliana with 4 samples.

Results

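Transcript levels of 9 transcription factor genes that maintain the root stem cell niche and set the size of the root apical meristem (RAM) were examined in *Arabidopsis thaliana* roots. The 9 genes were chosen by name from the 28642 loci of the gene table, and they are *WUSCHEL RELATED HOMEOBOX5* (*WOX5*), *PLETHORA1* (*PLT1*), *PLT2*, *PLT3*, *BABY BOOM* (*BBM*), *SHORT ROOT* (*SHR*), *SCARECROW* (*SCR*), *JACKDAW* (*JKD*) and *UPBEAT1* (*UPB1*). PolyA RNA from whole roots was sequenced with single-end reads in 2 biological replicates of each of 2 genotypes, 4 libraries in all. The WT was accession Wassilewskija (Ws). The mutant *atx1setm* carries a transgene for a catalytically inactive ATX1, altered in its SET domain, in the *atx1-1* mutant, which is itself in the Ws background. ATX1 is a histone methyltransferase that places the H3K4me3 mark, so the comparison asks how the absence of its activity affects transcript levels while the protein is still made. The labels give an age of 10 d and the methods 8 d for RNA-Seq, with the same medium and age for both genotypes. The sources used here do not give the promoter of the transgene, the number of independent lines or the number of seedlings pooled per library. All p-values measure the spread between these 4 libraries.

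The root stem cell niche is a small group of initial cells around the quiescent centre (QC), a few cells that seldom divide. WOX5 is made in the QC and keeps the neighbouring initials, columella initials above all, from differentiating. PLT proteins are AP2-domain factors whose gradient from the niche upwards sets where cells stay stem cells, divide or differentiate. SHR is made in the stele and moves out by one cell layer, where it activates *SCR* in the QC and the endodermis, and the zinc finger protein JKD works with both to hold SHR in that layer. UPB1 is a basic helix-loop-helix factor of the transition and elongation zones that represses peroxidase genes and thereby shifts reactive oxygen species, which limits the size of the RAM.

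Both of the close pairs among these genes could be told apart by their sequence. Coding sequences of *PLT1* and *PLT2* were identical at 81.0% of 1628 aligned bases, and those of *WOX5* and *WOX7*, its closest relative, at 79.9% of 354. A stretch of 90 coding bases from each is printed here (RefSeq sequence of TAIR10.1, plus strand, capitals mark the positions that differ within the pair). It was picked as the ungapped stretch within an exon where the pair is most alike. It thus shows where a read would meet few differences and not how often reads meet them over the whole gene. *WOX5* lies at chr3:3527750-3527839, *WOX7* at chr5:1734646-1734735, *PLT1* at chr3:7302666-7302755 and *PLT2* at chr1:18979646-18979735.
WOX5: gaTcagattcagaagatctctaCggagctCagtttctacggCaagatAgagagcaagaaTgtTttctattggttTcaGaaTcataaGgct
WOX7: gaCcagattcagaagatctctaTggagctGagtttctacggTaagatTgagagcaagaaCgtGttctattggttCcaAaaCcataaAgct
PLT1: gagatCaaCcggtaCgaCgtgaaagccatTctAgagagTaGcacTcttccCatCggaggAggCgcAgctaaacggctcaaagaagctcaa
PLT2: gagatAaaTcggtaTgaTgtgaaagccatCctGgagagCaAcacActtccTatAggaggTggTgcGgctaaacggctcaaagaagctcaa

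The *WOX* pair differed at 11 of these 90 bases, and its longest shared run was 19 bases. The *PLT* pair differed at 14, and its longest shared run was 24 bases. Reads were 50 cycles long. Every exonic 50-base window of all 9 genes occurred once in the genome, for example 954 of 954 windows in *WOX5* and 1967 of 1967 in *PLT1*, and no other locus of the table overlapped a member. Within single exons of the reference sequence, reads of one member were thus separable from those of another by exact matching. Differences of Ws from the reference, windows across exon junctions and the authors' mapping were not checked.

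The libraries held 38574293 to 46439122 exon reads, and factors of the trimmed mean of M-values (TMM) were 0.855 to 1.09. Of all loci, 20714 had enough reads to be tested, among them all 9 members, and the biological coefficient of variation was 0.303. The quasi-likelihood test of edgeR called 0 genes lower and 0 higher at an adjusted p under 0.05 (0% each). It also called 0% at the thresholds of the study methods (a fold of at least 3, p at most 0.0001 and adjusted p at most 0.01). The study applied those thresholds to a different test and reported genes that passed in both directions. The smallest adjusted p of any gene was 0.0837. *ATX1* itself was covered by 731 and 388 exon reads in the Ws libraries, against 475 and 270 in those of *atx1setm* (log2 fold change −0.53, SE 0.34, adjusted p = 0.701 by the same test). Transgene reads map to the same locus, so this level does not check the genotype labels. The shoot meristem genes *WUS*, *CLV3* and *STM* together reached no more than 0.182 CPM (counts scaled to library size) in any library. Summed green shoot markers ran from 121.5 to 374.5 CPM and were higher in replicate 2 than in replicate 1 of both genotypes.

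By that test 0 of the 9 genes passed an adjusted p under 0.05. At an unadjusted p under 0.05, *PLT1* and *UPB1* were lower in *atx1setm* (2 of 9, against 4.78% of all genes tested) and *WOX5* was higher (1 of 9, against 4.93%). Other tests of the same counts placed *UPB1* and *WOX5* past an adjusted p under 0.05. With edgeR's exact test 1 member was lower, against 2.24% of all genes, and 1 higher, against 1.71%. With DESeq2 likewise 1 was lower, against 1.75%, and 1 higher, against 1.46%. With the replicate number as a block, 2 were lower (*PLT1* and *UPB1*, against 9.9%) and 1 higher (*WOX5*, against 8.87%). *UPB1* was also the only member lower by a fold of at least 2 (5.03% of all genes), and *WOX5* the only one higher (5.45%). The 2 Ws values lay wholly above the 2 *atx1setm* values for *PLT1*, *PLT2*, *BBM*, *JKD* and *UPB1* (5 of 9, against 20% of all genes), wholly below for *WOX5* (1 of 9, against 19.6%), and overlapped for *PLT3*, *SHR* and *SCR*. The median log2 fold change of the members was −0.37, beside −0.01 over all genes tested. In bulk RNA from whole roots, fewer cells of a type and less RNA per cell cannot be told apart. The study reported shorter primary roots in *atx1setm* and seedlings without emerged lateral roots, so the share of each tissue may differ between the genotypes. Its part in the result was not tested.

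**Figure D1:**
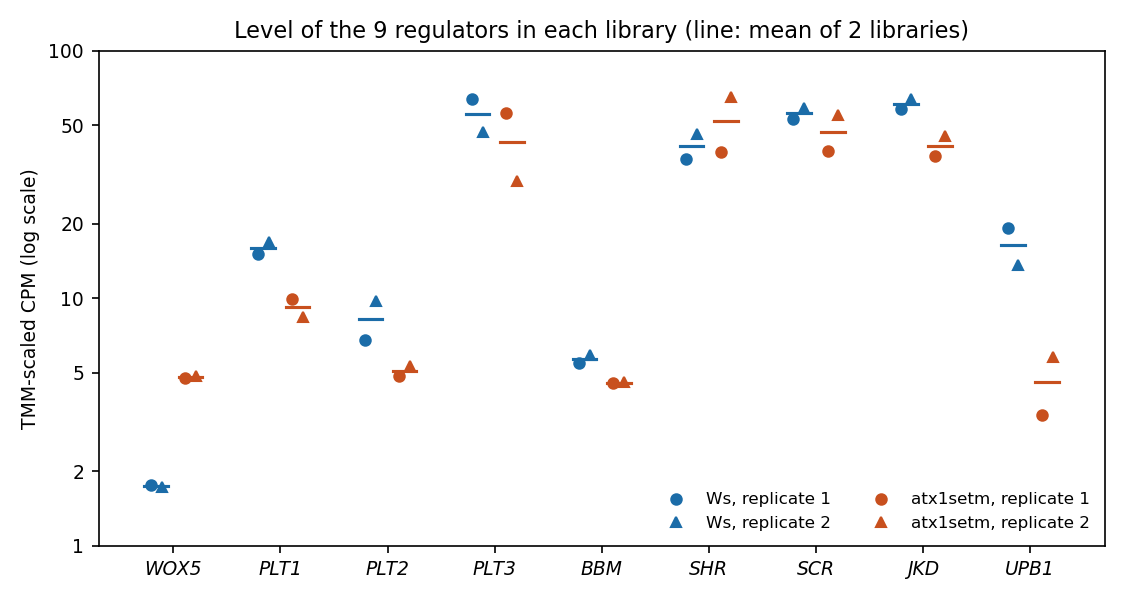
TMM-scaled CPM (log scale) of the 9 genes in each library, circles for replicate 1 and triangles for replicate 2, blue for Ws and orange for *atx1setm*, with a bar at the mean of 2. *WOX5* was the only gene whose *atx1setm* values all lay above those of Ws, and *UPB1* had the widest gap in the other direction, from 13.7 and 19.2 in Ws to 3.37 and 5.79 in *atx1setm*.

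*WOX5* (AT3G11260, chromosome 3 of TAIR10 from 3527575 to 3528433, 750 exonic bases) was the least abundant of the 9 in the WT. Replicates 1 and 2 of Ws gave 87 and 67 exon reads for it, against 222 and 187 in those of *atx1setm*, or 1.76 and 1.72 CPM against 4.76 and 4.86 CPM. The replicates of each genotype lay close together, and the genotypes did not overlap. The means were 1.74 ± 0.0322 CPM in Ws and 4.81 ± 0.0703 CPM in *atx1setm* (SD, n = 2), 2.76-fold higher, with a log2 fold change of 1.46 (SE 0.30, 95% interval 0.70 to 2.22, adjusted p = 0.199 by edgeR's quasi-likelihood test). With edgeR's exact test the adjusted p was 0.011, and with DESeq2 0.0416. Reads across the exon junction were few and moved the same way, with 3 in each WT library, against 11 and 14 in the mutant. Gene reads equalled exon plus intron reads at every locus, so junction reads, here and below, are taken as part of the exon reads. They are not independent support. The unadjusted p of *WOX5* ranked 437 among the 20714 genes. Without Ws replicate 1 (log2 fold change 1.48) or Ws replicate 2 (1.46) it no longer passed an unadjusted p under 0.05.

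The 250 bases upstream of the RefSeq start are printed for *WOX5*, *PLT1* and *UPB1*, the 3 genes at an unadjusted p under 0.05. Chromatin was not measured in these libraries, and the printed windows end before that start. They lie at chr3:3527030-3527279 (plus strand), chr3:7300194-7300443 (plus strand) and chr2:19412329-19412578 (minus strand, printed 5′ to 3′ along the gene), from TAIR10.1 as given by RefSeq, whose gene starts lie upstream of those in the table for these genes. Capitals mark the only match to the motifs searched.
WOX5: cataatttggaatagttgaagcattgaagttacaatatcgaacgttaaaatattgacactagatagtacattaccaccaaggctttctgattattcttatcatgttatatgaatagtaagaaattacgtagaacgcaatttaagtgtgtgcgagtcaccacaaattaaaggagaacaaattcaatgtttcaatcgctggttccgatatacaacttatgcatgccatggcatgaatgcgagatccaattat
PLT1: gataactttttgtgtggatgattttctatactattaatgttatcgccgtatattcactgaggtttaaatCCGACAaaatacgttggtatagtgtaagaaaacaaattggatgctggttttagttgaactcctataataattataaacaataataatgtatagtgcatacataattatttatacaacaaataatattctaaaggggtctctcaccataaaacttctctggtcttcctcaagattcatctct
UPB1: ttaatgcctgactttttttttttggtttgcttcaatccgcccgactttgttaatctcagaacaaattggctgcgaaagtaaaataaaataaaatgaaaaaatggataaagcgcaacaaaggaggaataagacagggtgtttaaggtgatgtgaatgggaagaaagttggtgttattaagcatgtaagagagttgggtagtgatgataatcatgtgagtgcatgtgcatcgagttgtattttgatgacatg

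The motifs searched on both strands were the auxin response element TGTCTC, its variant TGTCGG and the G-box CACGTG. The variant TGTCGG, which reads CCGACA on the other strand, was found in the windows of *PLT1* and *PLT3*, and in 4.2% of the 27438 windows of all genes. TGTCTC was found only in the window of *BBM* (10.9% of all windows) and CACGTG only in that of *JKD* (6.5%). These matches describe the letters and are not binding sites.

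*PLT1*, *PLT2*, *PLT3* and *BBM* all had lower mean levels in *atx1setm*, and *PLT1* was the only one of them at an unadjusted p under 0.05. *PLT1* (AT3G20840, chromosome 3 from 7300675 to 7303693, 2137 exonic bases), which acts redundantly with *PLT2* to specify the niche, had 15.1 and 16.9 CPM in Ws and 9.97 and 8.42 CPM in *atx1setm*. Its means of 16.0 ± 1.26 and 9.19 ± 1.10 CPM (SD, n = 2) differ by a log2 fold change of −0.80 (SE 0.25, 95% interval −1.43 to −0.16, adjusted p = 0.392 by edgeR's quasi-likelihood test), and Ws was 1.74-fold higher. The genotypes did not overlap, and 70 and 49 junction reads in the WT stood against 29 and 17 in the mutant. With edgeR's exact test the adjusted p was 0.282, and with DESeq2 0.446. It was 0.0474 when *atx1setm* replicate 1 was left out, where the log2 fold change was −0.92. Without either Ws library or without *atx1setm* replicate 2 (log2 fold change −0.66) it did not pass an unadjusted p under 0.05.

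*PLT2* (AT1G51190, chromosome 1 from 18977284 to 18980618, 2136 exonic bases) had 6.79 and 9.75 CPM in Ws and 4.87 and 5.33 CPM in *atx1setm*. The genotypes did not overlap, although Ws replicate 1 lay nearer to the *atx1setm* libraries than to Ws replicate 2. The log2 fold change was −0.70 (SE 0.31, 95% interval −1.49 to 0.09, adjusted p = 0.571 by edgeR's quasi-likelihood test). Within each library *PLT1* stayed above *PLT2* in RPKM (the authors' read counts scaled by exon length and library size), by 2.22 and 1.73 times in Ws and 2.05 and 1.58 times in *atx1setm*. This ratio, like the others given here, was chosen after the values were seen.

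*BBM* (*PLT4*; AT5G17430, chromosome 5 from 5742542 to 5745568, 1755 exonic bases), best known as a driver of embryo formation, had 5.46 and 5.88 CPM in Ws and 4.52 and 4.60 CPM in *atx1setm*. The replicates of each genotype lay close together and the genotypes did not overlap, but the log2 fold change was small at −0.31 (SE 0.27, 95% interval −1.01 to 0.38, adjusted p = 0.742 by edgeR's quasi-likelihood test). *PLT3* (named *AIL6* in RefSeq; AT5G10510, chromosome 5 from 3315529 to 3320202, 2480 exonic bases), which also acts in lateral root primordia, had 64.1 and 47.0 CPM in Ws and 56.0 and 29.7 CPM in *atx1setm*. Replicate 1 was above replicate 2 in both genotypes, so the genotypes overlapped. Its log2 fold change was −0.37 (SE 0.39, 95% interval −1.36 to 0.61, adjusted p = 0.768 by the same test). It was 0.034 without *atx1setm* replicate 2 and −0.905 without *atx1setm* replicate 1. Leaving out a library also unbalances the replicate numbers between the genotypes. Among libraries of the same replicate number, *atx1setm* was below Ws for both numbers.

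**Figure D2:**
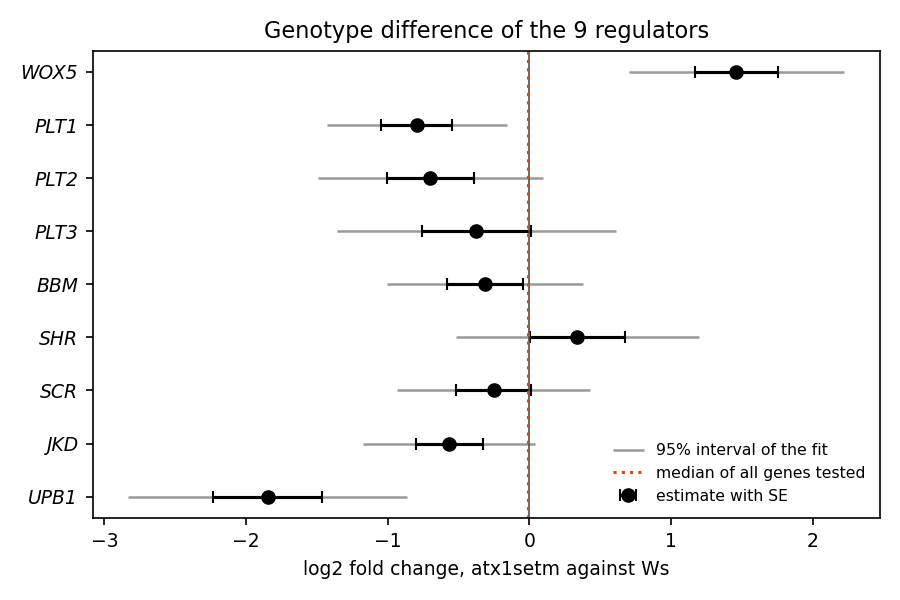
Log2 fold change of each gene, *atx1setm* against Ws (points), with its SE (black bars) and 95% interval (grey lines) from edgeR's quasi-likelihood fit on 2 libraries per genotype, and the median of all genes tested (dotted line). The intervals of *WOX5* (0.70 to 2.22), *PLT1* (−1.43 to −0.16) and *UPB1* (−2.83 to −0.86) exclude 0, and those of the other 6 genes include it.

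None of *SHR*, *SCR* and *JKD*, which act together in the ground tissue, passed an unadjusted p under 0.05 by edgeR's quasi-likelihood test. *SHR* (AT4G37650, chromosome 4 from 17691786 to 17693760, 1975 bases in a single exon) had 36.4 and 45.9 CPM in Ws and 38.9 and 65.1 CPM in *atx1setm*. The genotypes overlapped, and *atx1setm* replicate 2 was the one high library. The log2 fold change was 0.34 (SE 0.34, 95% interval −0.52 to 1.2, adjusted p = 0.761 by edgeR's quasi-likelihood test) and became −0.064 without that library. Replicate 2 was above replicate 1 in both genotypes, and among libraries of the same replicate number *atx1setm* was above Ws for both numbers.

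*SCR* (AT3G54220, chromosome 3 from 20070158 to 20072780, 2509 exonic bases), the GRAS factor that SHR activates, had 53.2 and 58.8 CPM in Ws and 39.4 and 54.8 CPM in *atx1setm*. *Atx1setm* replicate 1 was the low library, and replicate 2 lay within the Ws range (log2 fold change −0.25, SE 0.27, 95% interval −0.93 to 0.43, adjusted p = 0.773 by the same test). *JKD* (AT5G03150, chromosome 5 from 745644 to 749007, 2046 exonic bases) had 58.1 and 64.1 CPM in Ws and 37.4 and 45.2 CPM in *atx1setm*. Here the genotypes did not overlap, and Ws was 1.48-fold higher (log2 fold change −0.57, SE 0.24, 95% interval −1.17 to 0.04, adjusted p = 0.545 by the same test). The WT had 150 and 141 junction reads of *JKD*, against 81 and 79 in the mutant. The 5 *CASP* genes, which mark the differentiated endodermis, summed to 198.6 and 216.3 CPM in Ws and 117.1 and 219.9 CPM in *atx1setm*, so the library lowest in *SCR* and *JKD* was also lowest in these. Their part in the result was not tested.

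The ratio of *SHR* to *JKD* in RPKM was 0.649 and 0.742 in Ws and 1.08 and 1.49 in *atx1setm*. *SHR* to *SCR* was 0.870 and 0.991 in Ws and 1.26 and 1.51 in *atx1setm*. In both, the 2 *atx1setm* libraries lay above the 2 Ws libraries, which describes the unequal change within a library and does not say which gene moved.

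*UPB1* (AT2G47270, chromosome 2 from 19411560 to 19412151, 592 bases in a single exon) showed the widest difference. Ws gave 949 and 533 exon reads for it, against 157 and 223 from *atx1setm*, or 19.2 and 13.7 CPM against 3.37 and 5.79 CPM. Replicates differed within both genotypes, but even the lower Ws library was above the higher *atx1setm* one. The means were 16.5 ± 3.94 CPM and 4.58 ± 1.72 CPM (SD, n = 2), and Ws was 3.60-fold higher. The log2 fold change was −1.85 (SE 0.38, 95% interval −2.83 to −0.86, adjusted p = 0.209 by edgeR's quasi-likelihood test). With edgeR's exact test the adjusted p was 0.00283, and with DESeq2 0.00215. By the quasi-likelihood test it was 0.00599 without *atx1setm* replicate 1, 2.09e-05 without *atx1setm* replicate 2, 0.591 without Ws replicate 1 and 0.0673 without Ws replicate 2. The root hair markers *COBL9* and *EXPA7*, expressed in differentiating epidermis beyond the RAM, were lower in the same libraries and summed to 78.6 and 89.7 CPM in Ws and 29.3 and 33.4 CPM in *atx1setm*. Their part in the result was not tested.

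**Figure D3:**
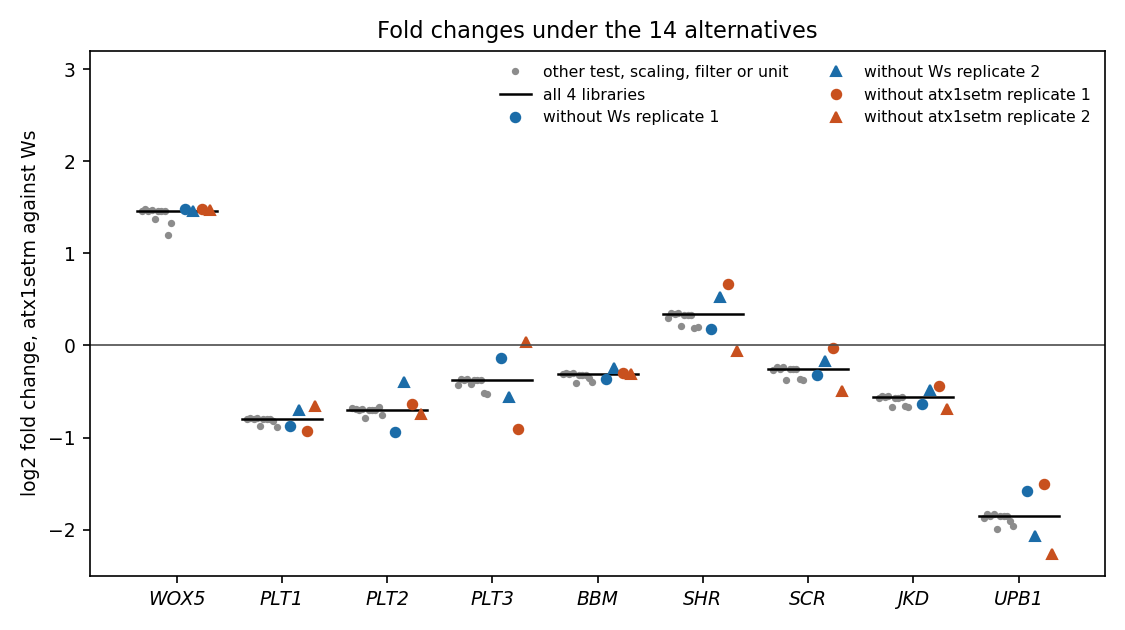
Log2 fold change of the 9 genes, *atx1setm* against Ws, with all 4 libraries (black bars) and under 14 alternatives, where grey points are other tests, scalings, filters or units, and blue and orange symbols leave out a Ws or an *atx1setm* library (circles replicate 1, triangles replicate 2). *WOX5* stayed between 1.2 and 1.48 and *UPB1* between −2.27 and −1.51, whereas *PLT3* and *SHR* crossed 0 when *atx1setm* replicate 2 was left out.

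Levels of different genes were compared per exon length with the authors' RPKM. In Ws the order from high to low was *JKD* (30.6 RPKM), *UPB1* (28.6), *PLT3* (23.1), *SCR* (22.9), *SHR* (21.3), *PLT1* (7.65), *PLT2* (3.95), *BBM* (3.31) and *WOX5* (2.38). Library values separated *SHR* from *PLT1*, *PLT1* from *PLT2* and *BBM* from *WOX5*, and the other neighbours overlapped. In *atx1setm* the order was *SHR* (24.5 RPKM), *JKD* (19.2), *SCR* (17.7), *PLT3* (17.2), *UPB1* (7.19), *WOX5* (6.15), *PLT1* (4.17), *BBM* (2.49) and *PLT2* (2.28). Here the neighbours that overlapped were *SCR* with *PLT3*, *UPB1* with *WOX5*, and *BBM* with *PLT2*.

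*UPB1* thus went from rank 2 of the 9 to rank 5, and *WOX5* from rank 9 to rank 6, with 28.6 ± 7.81 against 7.19 ± 1.52 RPKM for *UPB1* and 2.38 ± 0.126 against 6.15 ± 0.959 RPKM for *WOX5* (SD, n = 2). Among all genes tested, *UPB1* went from percentile 78.1 to 44 in RPKM and *WOX5* from 20.2 to 40.2. The ratio of *WOX5* to *PLT1* in RPKM was 0.334 and 0.291 in Ws and 1.36 and 1.64 in *atx1setm*, so the less abundant of these niche transcripts in the WT was the more abundant in the mutant. The ratio of *WOX5* to *SCR*, both active in the QC, was 0.111 and 0.0977 in Ws and 0.404 and 0.297 in *atx1setm*.

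The pathways around the 9 genes were described with 10 lists of 72 further genes, 62 of them tested. At an unadjusted p under 0.05 by edgeR's quasi-likelihood test, 1 was lower in *atx1setm*, against 4.78% of all genes, and 8 were higher, against 4.93%, while 0 passed an adjusted p under 0.05. The median log2 fold change was 0.17, beside −0.01 over all genes tested. The 8 include *WOX7* and *ERF115*, which had under 10 reads in each Ws library, and with at least 10 counts required in every library 5 were higher. Fewer passed when either Ws library was left out, but the spread between replicates then comes from the *atx1setm* pair alone. A count from such a fit therefore does not show which libraries the result rests on. The 8 kept log2 fold changes above 0 with Ws replicate 1 or Ws replicate 2 left out.

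Other *WOX* genes made up 4 of the 8. Of 14 listed, 6 were tested. *WOX7*, which represses lateral root development, was covered by 6 and 7 exon reads in the WT, against 43 and 35 in the mutant (log2 fold change 2.60, adjusted p = 0.161 by edgeR's quasi-likelihood test and 0.000839 by its exact test). It had under 10 reads in each Ws library and passed the filter on low counts through the *atx1setm* libraries. *WOX4*, a gene of the vascular cambium, had 18.8 and 20.9 CPM in Ws and 36.8 and 39.0 CPM in *atx1setm* (log2 fold change 0.93, adjusted p = 0.278 by the quasi-likelihood test). *WOX12*, known from the founding of adventitious roots together with *WOX11*, had 1.95 and 2.16 CPM in Ws and 5.02 and 3.92 CPM in *atx1setm* (log2 fold change 1.12, adjusted p = 0.339). *WOX13*, an early-branching member of the family, had 13.0 and 16.5 CPM in Ws and 21.9 and 28.7 CPM in *atx1setm* (log2 fold change 0.78, adjusted p = 0.462). *WOX11* (1.01) and *WOX14* (0.86) had log2 fold changes above 0 that did not pass.

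*WOX9*, which was too low to be tested, had 25 and 7 exon reads in the WT, against 2 and 3 in the mutant. Of the 6 other tested *WOX* genes, the exact test called 1 higher at an adjusted p under 0.05, against 1.71% of all genes. DESeq2 called 0, against 1.46%. Without Ws replicate 1 or Ws replicate 2, *WOX7* was the only one of these 4 at an unadjusted p under 0.05, and without *atx1setm* replicate 2 *WOX13* was not.

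**Figure D4:**
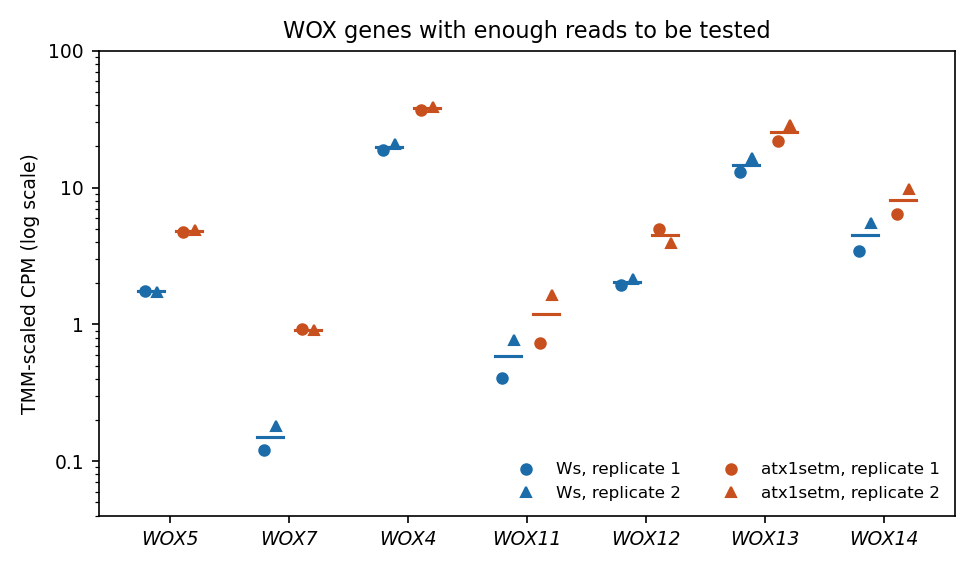
TMM-scaled CPM (log scale) of *WOX5* and the 6 other *WOX* genes with enough reads, circles for replicate 1 and triangles for replicate 2, blue for Ws and orange for *atx1setm*, with a bar at the mean of 2. The *atx1setm* values lay above both Ws values in every gene drawn except *WOX11*, where the lower one (0.729) fell below Ws replicate 2 (0.770). Of all genes tested, 19.6% had *atx1setm* values wholly above those of Ws. *WOX7* had under 10 reads in each Ws library, and *WOX9*, too low to be tested and lower in *atx1setm*, is not drawn.

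The 3 other *PLT* relatives that were listed had log2 fold changes opposite in sign to those of the 4 members. *AIL5* (*PLT5*), which acts in lateral root formation, was covered by 233 and 148 exon reads in the WT, against 407 and 272 in the mutant (log2 fold change 0.89, adjusted p = 0.429 by edgeR's quasi-likelihood test). *ANT* (0.64) and *AIL7* (0.62) did not pass. In the *SHR* and *SCR* pathway, 1 of 11 genes was lower and 0 higher, with a median of 0.20. The one was *IDD4*, a zinc finger gene of the same family as *JKD*, with 6.51 and 5.82 CPM in Ws and 2.49 and 1.84 CPM in *atx1setm* (log2 fold change −1.51, adjusted p = 0.213 by the quasi-likelihood test and 0.0117 by the exact test). The *SHR* and *SCR* target *CYCD6;1*, a D-type cyclin of the formative ground tissue division, was chosen after its values were seen and had 7.77 and 8.65 CPM in Ws and 17.3 and 10.7 CPM in *atx1setm* (log2 fold change 0.77, adjusted p = 0.552).

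Among 12 QC and root founder genes, 2 were higher and 0 lower, with a median of −0.15. *ERF115*, a factor that drives QC divisions and regeneration after cell loss, was covered by 5 and 4 exon reads in the WT, against 22 and 24 in the mutant (log2 fold change 2.39, adjusted p = 0.209 by the quasi-likelihood test, 0.0161 by the exact test and 0.307 by DESeq2). Like *WOX7*, it had under 10 reads in each Ws library and passed the filter on low counts through the *atx1setm* libraries. Its tests and its place among the higher genes therefore depend on that filter. *BDL*, the Aux/IAA repressor of *MP*, had 10.0 and 11.1 CPM in Ws and 14.8 and 18.2 CPM in *atx1setm* (log2 fold change 0.65, adjusted p = 0.51). Of 10 mitotic genes 1 was higher, *CDKB1;1*, covered by 985 and 988 exon reads in the WT, against 1556 and 2034 in the mutant (log2 fold change 0.93, adjusted p = 0.458). The list summed to 315.8 and 281.7 CPM in Ws and 392 and 347.6 CPM in *atx1setm*.

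The other lists had 0 genes at an unadjusted p under 0.05. They were the *CLE40* and *ACR4* genes of the distal niche (6 tested, median −0.19, *CRN* 0.52 and *FEZ* −0.62 nearest to passing), stele patterning genes (9 tested, median 0.03, *HB8* 0.62 and *PHB* 0.41) and cytokinin-side regulators of meristem size (3 tested, median −0.31, *SHY2* −0.69 and *ARR12* −0.31). The list for receptors of the root meristem growth factor peptides kept only *TPST*, which sulfates those peptides, at 0.08. The list for UPB1 target peroxidases and regulators of reactive oxygen species kept only *MYB30*, a regulator linked to these species in the root tip, at 0.15. No such receptor and no target peroxidase was thus examined. At the same threshold, among markers of cell types, 1 of 5 *CASP* genes was higher (*CASP4*, log2 fold change 1.12) and both root hair genes were lower (*COBL9* −1.66 and *EXPA7* −1.05). *CASP4* did not pass without either Ws library or without *atx1setm* replicate 2, where its log2 fold change was 0.48, and it was 1.57 without *atx1setm* replicate 1. *EXPA7* did not pass without either Ws library. Root cap markers (*BRN1* 0.85, *BRN2* 0.27), 4 stele markers (median 0.18) and 7 green shoot markers (median 0.05) had 0 in either direction.

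The genes whose pattern over the 4 libraries was most like that of each member at an unadjusted p under 0.05 were found by the Euclidean distance between log2 CPM profiles centred on their mean. For *WOX5* they were AT1G74390 (distance 0.033) and AT1G63550 (0.085), and 188 genes lay within 0.5. For *PLT1* they were AT4G29690 (0.052) and *SPD1* (0.053), with 1140 genes within 0.5, and for *UPB1* AT5G62280 (0.136) and AT5G62340 (0.147), with 30. The profiles were not scaled, so these counts also depend on the size of each gene's change and do not rank how common its pattern is.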

How the data were processed

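RNA-Seq of whole roots was compared between Ws (n = 2) and *atx1setm* (n = 2), grouped by the labels. The authors trimmed and mapped the reads to TAIR10 in CLC Genomics Workbench, with FastQC named in the submitters' processing notes. The sources used here give neither mapping settings nor strandedness. For 28642 loci and in 87 columns, the authors deposited raw counts of exon, intron and junction reads, with unique and total exon reads equal at every locus. The deposited RPKM are counts scaled by the authors by exon length and reads mapped to genes. Columns of the authors' own comparison (fold changes and p-values) were not used, nor were 48 other per-sample columns. Starts in the table were 0-based, so 1 was added.

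Exon counts were tested with the quasi-likelihood test of edgeR 4.0.16 (legacy fit, TMM, filterByExpr) in R 4.3.3, fitted across 20714 genes with Benjamini-Hochberg adjustment. CPM are TMM-scaled, errors are SD, and log2 fold changes are *atx1setm* against Ws with the SE of the fit. RPKM levels are not TMM-scaled. Replicate precision is limited by n = 2. Alternatives were edgeR's exact test, DESeq2 1.42.0, a block for the replicate number, scaling by RLE or by library totals, no filter on low counts or a minimum of 10 in all libraries, gene reads instead of exon reads, limma-trend (limma 3.58.1) on log2 RPKM with 0.5 or 0.1 added, and each library left out.

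The members and lists were chosen with earlier results of these data known. Named were all 9 members, *ATX1*, the listed genes at an unadjusted p under 0.05 or otherwise the 2 with the smallest p in a list, and for likeness the 2 nearest genes. Names and sequences come from RefSeq (TAIR10.1), which named 27997 loci, and 12 listed loci without the name there were left out.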

Additional observations from a re-analysis of the deposited data

How the results depend on the processing

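Across 14 alternatives, 124 of 126 values of the 9 genes kept their direction, and the exceptions were *PLT3* (0.034) and *SHR* (−0.064) without *atx1setm* replicate 2, where the ranges with a library left out were −0.905 to 0.034 and −0.064 to 0.662. Of the 126, 13 passed an adjusted p under 0.05, in *WOX5*, *UPB1*, *PLT1* and *PLT3*. The labels number replicates alike in both genotypes but name no shared batch, and with 2 numbers the pairing was not adopted, although same-numbered libraries deviated together (r = 0.71 over 20714 genes). With the replicate block, 3 members passed (*WOX5* 5.9e-05, *PLT1* 0.0102 and *UPB1* 1.11e-10). That block called 9.9% of all genes lower and 8.87% higher at an adjusted p under 0.05. Members called at an adjusted p numbered 0 in the main test, 3 with the block, 2 with DESeq2 and 2 with the exact test. At an unadjusted p under 0.05, lower members numbered 2, 4 with the block, and 3 with library totals or RPKM plus 0.1, and higher members 1. Pathway genes lower numbered 1, 7 with the block, and 2 with library totals, no filter or either RPKM setting. Those higher numbered 8, 18 with the block, and 5 with at least 10 counts or either RPKM setting. These counts also moved with a library left out. Shares of all genes at an unadjusted p are given for the main test only. Higher counts under an alternative are therefore not read as a result about these genes. For the other 27 named genes, 369 of 375 values kept their direction. The reversed ones were *TPST* (−0.038 with RPKM plus 0.5, −0.042 with RPKM plus 0.1, and −0.196 to 0.336 with a library left out), *MYB30* (−0.040 to 0.383 with a library left out) and *RBCS1B* (−2.004 to 2.377, with 1.42 in the main test). The median of all genes was −0.13 to −0.10 with library totals or RPKM, beside −0.01. The cause of these changes was not tested. With 1 library left in an arm, that library is assumed to vary like the others. Low counts limit *WOX5*, *WOX7* and *ERF115*.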
